A study of Mus musculus with 2 samples.

Results

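The genes Sbp, Msmb, Pbsn, Azgp1, C1rb, Ren1, Rnase1, Fgl1, Gsdma and Tcaf3, known as or grouped with the secretory products that mark particular lobes of the mouse prostate, were followed in single luminal cells. The 10 genes were taken by name from the 32285 genes of the deposited matrices, and all 10 were found there. They were selected on measured levels, namely their UMI levels in these same cells as known from earlier results, so all values are described without tests. The material was prostate of wild-type male C57BL6 mice, dissociated to single cells with papain and TrypLE, with 1 library from the ventral lobes and 1 library from the proximal and periurethral region, which lies next to the urethra. No agent, allele or surgery was named for either library, and neither age nor number of animals is given in the sources used here. Chemistry of the 10x Genomics 3' assay was version 2 for the ventral and version 3 for the proximal library, which means that chemistry and region cannot be told apart, and with 1 library per region no difference between them has a replicate check.

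The secretory (luminal) cells of the mouse prostate line the ducts and release proteins that become part of the seminal fluid, and each pair of lobes (ventral, lateral, dorsal, anterior) has its own mixture. Many of these products depend on androgen. Nearer the urethra the ducts are lined by another luminal type, rich in Krt4 and Psca, that is not specialised for secretion.

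The ventral matrix held 2221 barcodes with 49356586 UMIs (molecular tags that let each RNA molecule be counted once), and the proximal matrix held 4344 barcodes with 97817603 UMIs, with 0 barcodes in common. Filters on genes and mitochondrial share left 1988 cells of the ventral and 3705 of the proximal library. Clusters were named from marker genes, and a name means that the cells resemble that class. Distal luminal-like cells, the secretory class, numbered 1358 in the ventral library (68.3% of kept cells) and 706 in the proximal library (19.1%), with median depths of 27623 and 47823 UMIs. Proximal luminal-like cells numbered 97 and 735. In the proximal library 784 cells took no class name, because the leading genes of their clusters pointed to another class. Among them were clusters 3 (401 cells) and 4 (239 cells), whose best class was proximal luminal. With clusters named by best class only, that class numbered 1375 in the proximal library. The secretory class held its marker Hoxb13 at 469 counts per 1000000 UMIs (CPM) in the ventral and 293 CPM in the proximal library. Ventral proximal luminal-like cells held it at 355 CPM and basal-like cells at 247 CPM, so it set the class little apart there, against 41.3 and 50.6 CPM in the proximal library. The leukocyte gene Ptprc had 0 UMIs in the ventral and 8 UMIs in the proximal secretory class. A further 337 ventral cells, in clusters 0 and 8, took no class name because fewer than 3 markers were found, although cluster 0 held Sbp at 241787 CPM and cluster 8 at 231035 CPM. They are left out of the class values.

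Levels are CPM of pooled UMIs, with exact 95% Poisson intervals, and ratios and shares have exact 95% intervals. All cover counting error only. A cell was said to make a product above background where it held at least 3 UMIs of it and its own CPM was over 5 times the upper limit of the level in the reference immune-like cells of its library. These reference cells were macrophage-like and T or NK-like cells with at most 5% of their UMIs from Sbp and Spink1. As they were picked for low Sbp, the ventral Sbp background, its limit and the ratios over it are partly set by that choice. The reference cells numbered 39 in the ventral library, with a median of 3683 UMIs, and 106 in the proximal library, with a median of 9823 UMIs. The limits differed between the libraries, such as 38416 and 6266 CPM for Sbp, so shares above them are not like for like. Single immune-like cells raised the proximal Msmb, Rnase1 and Tcaf3 limits, as given with the background, and so bear on shares and combinations.

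The most frequent sets of products formed 3 combinations. The first was Sbp with Azgp1, in 1178 of 1358 ventral distal luminal-like cells (86.7%, interval 84.8 to 88.5) and in 127 of 706 proximal ones (18.0%, interval 15.2 to 21.02). The ventral background leaves out 16 cells of the immune-named clusters whose markers were mostly those of luminal cells, as described with the background. With those cells put back the share of cells above background went from 93.7% to 0% for Sbp and from 95.3% to 0.0736% for Azgp1. The second was Msmb, Pbsn, Rnase1 and Azgp1, in 49 ventral cells (3.61%) and 125 proximal cells (17.7%). The third was C1rb, Fgl1, Gsdma, Tcaf3, Pbsn, Rnase1 and Azgp1, in 159 proximal cells (22.5%), with Ren1 added in a further 63 (8.92%), of which 58 lay in cluster 5, and in 0 ventral cells. Azgp1 was the product common to all of them. The remaining cells held other sets. The plot of levels by cluster shows the 3 blocks.

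**Figure D1:**
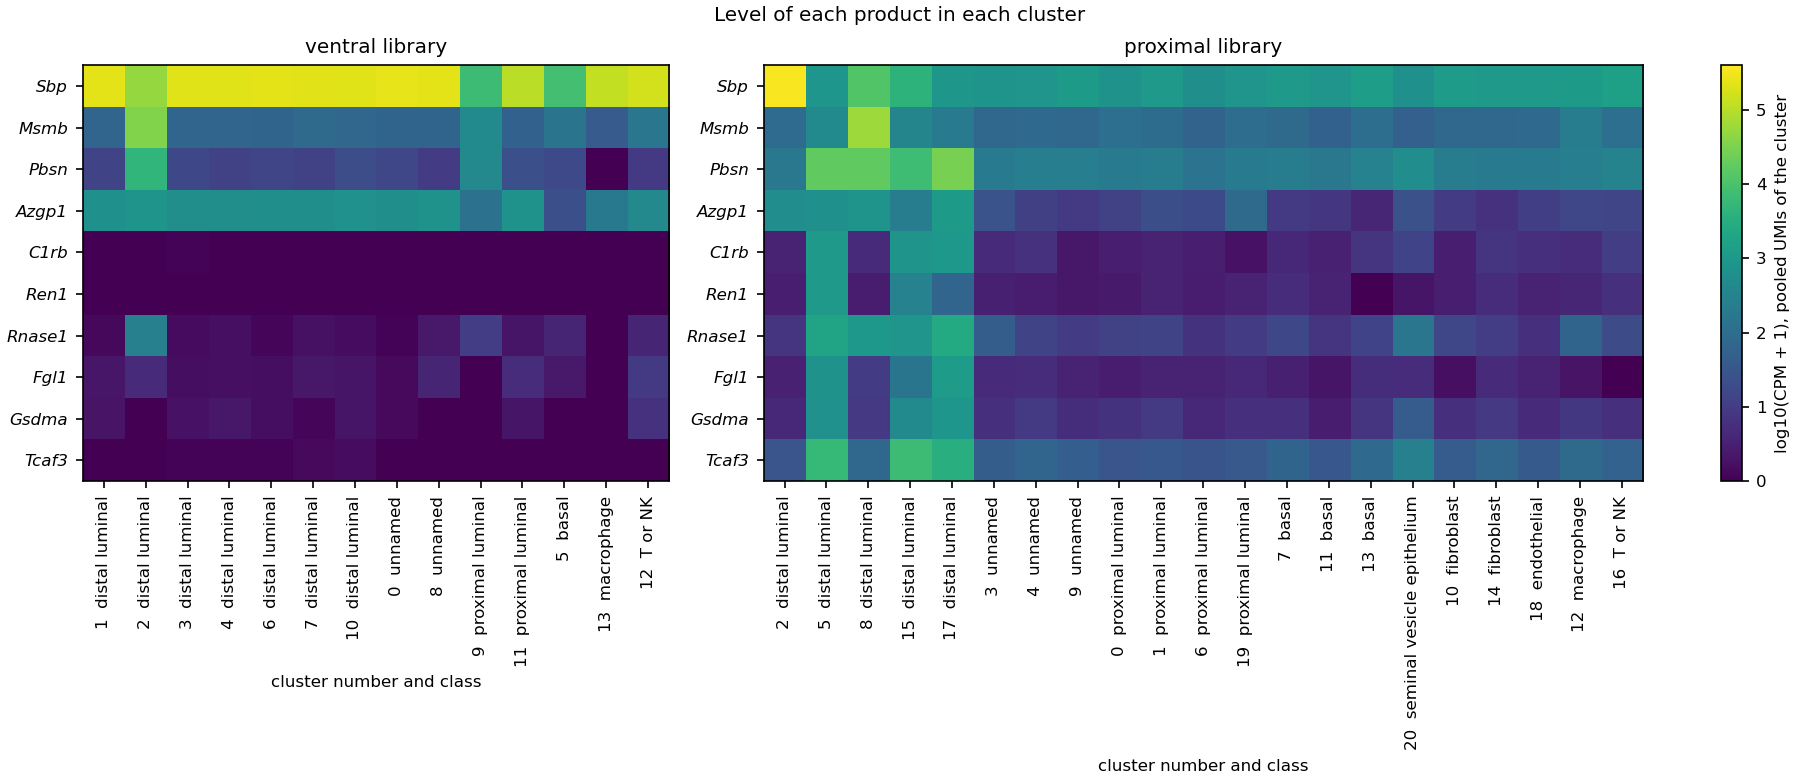
Pooled level of each product, as log10(CPM + 1) in colour, in each cluster of the ventral (left) and proximal (right) library, with the cluster number and class on the horizontal axis. Sbp fills the ventral distal luminal clusters and proximal cluster 2, Msmb peaks in ventral cluster 2 and proximal cluster 8, and C1rb, Ren1, Fgl1, Gsdma and Tcaf3 are high in proximal clusters 5, 15 and 17.

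Promoter windows of products that stand for these combinations are printed so that they can be compared: Sbp for the first, Pbsn, shared by the second and the third, and Ren1 and Tcaf3 for the third. Each runs from 250 bases before to 50 bases after a RefSeq transcription start on build GRCm38.p6, and windows were found for 7 of the 10 genes, 9 windows in all. Capitals mark the steroid hormone response half-site AGAACA, searched on both strands, and the TATA motif TATAAA, searched on the strand of the gene. The windows lie at chr17:23941428-23941727 (plus strand) for Sbp, chrX:77853451-77853750 (minus strand) for Pbsn, chr1:133350424-133350723 (plus strand) for Ren1 and chr6:42597323-42597622 (minus strand) for Tcaf3.
Sbp: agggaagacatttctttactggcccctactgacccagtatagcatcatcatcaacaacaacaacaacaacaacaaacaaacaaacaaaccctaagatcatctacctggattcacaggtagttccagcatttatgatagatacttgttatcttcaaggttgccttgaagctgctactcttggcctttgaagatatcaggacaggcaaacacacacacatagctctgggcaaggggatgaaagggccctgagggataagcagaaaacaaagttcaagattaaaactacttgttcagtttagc
Pbsn: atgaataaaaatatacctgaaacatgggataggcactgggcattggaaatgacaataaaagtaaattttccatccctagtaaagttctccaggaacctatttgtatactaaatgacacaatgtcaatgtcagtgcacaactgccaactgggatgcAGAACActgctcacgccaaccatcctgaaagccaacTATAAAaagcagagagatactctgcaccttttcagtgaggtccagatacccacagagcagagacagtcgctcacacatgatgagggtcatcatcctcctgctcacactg
Ren1: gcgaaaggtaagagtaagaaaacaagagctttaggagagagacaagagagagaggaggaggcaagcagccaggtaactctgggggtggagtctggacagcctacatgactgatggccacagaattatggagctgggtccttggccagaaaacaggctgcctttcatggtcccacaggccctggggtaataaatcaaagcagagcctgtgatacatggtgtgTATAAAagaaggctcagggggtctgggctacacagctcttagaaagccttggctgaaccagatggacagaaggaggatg
Tcaf3: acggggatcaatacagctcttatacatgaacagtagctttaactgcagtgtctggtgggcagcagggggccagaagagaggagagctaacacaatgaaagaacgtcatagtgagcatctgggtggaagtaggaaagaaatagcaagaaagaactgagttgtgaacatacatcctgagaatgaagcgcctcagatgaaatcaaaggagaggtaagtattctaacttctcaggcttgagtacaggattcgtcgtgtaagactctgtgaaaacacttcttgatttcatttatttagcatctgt
The half-site was found in the Pbsn window at -95 from the start, in 1 of the other Sbp windows at -64 and in the Azgp1 window at 14. TATAAA was found in the Pbsn window at -59 and in the Ren1 window at -29. Among 32851 promoter windows of the same length the half-site was in 19.0% and TATAAA in 8.32%. The windows of C1rb, Rnase1 and Tcaf3 held neither. A match in so short a window describes its letters only.

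Sbp (spermine-binding protein, ENSMUSG00000024128, chr17:23941672-23945607 on the plus strand of GRCm38) encodes a secreted glycoprotein of the ventral prostate whose synthesis depends on androgen. Its level was 211539 CPM (interval 211392 to 211685) in ventral and 105978 CPM (interval 105869 to 106087) in proximal distal luminal-like cells. In the ventral library the level was even. Over the 6 distal luminal-like clusters other than cluster 2 it lay between 215235 and 238772 CPM, and the median cell of the class gave 22.5% of its UMIs to this gene. Proximal Sbp was concentrated: cluster 2, with 163 cells, held it at 343670 CPM and had 94.7% of all Sbp UMIs of the library. Clusters 5 and 17 stood at 884 and 910 CPM, below the reference immune-like level of 1190 CPM. Msmb-rich cluster 8 stood at 12038 CPM, but 1 cell gave 46.3% of those UMIs and the median cell was at 831 CPM. The highest proximal cell gave 57.6% of its UMIs to Sbp and the highest ventral cell 39.0%. Sbp was the most abundant of the 10 products in 1285 ventral (94.6%) and 192 proximal (27.2%) distal luminal-like cells.

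Msmb (beta-microseminoprotein, ENSMUSG00000021907, chr14:32142023-32158370, plus strand) encodes a small cysteine-rich protein that is a major component of seminal fluid. In the ventral library it came from a minority of cells. Cluster 2, with 115 cells, held Msmb at 33800 CPM and 96.8% of the library's Msmb UMIs, while the other distal luminal-like clusters held 63.7 to 84.9 CPM, close to the 63.8 CPM of the reference immune-like cells. Of the proximal clusters, cluster 8, with 156 cells, held 59278 CPM and 98.3% of the Msmb UMIs. All 156 of its cells were above background, from 1506 to 117303 CPM with a median of 57333. Proximal cluster 8 stood 1.75-fold above ventral cluster 2 in Msmb (interval 1.74 to 1.77). Msmb led the 10 products in 68 ventral cells (5.01%, interval 3.91 to 6.31) and 154 proximal cells (21.8%, interval 18.8 to 25.04).

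Pbsn (probasin, ENSMUSG00000000003, chrX:77837901-77853623, minus strand) encodes a secreted lipocalin whose promoter is widely used to drive transgenes in prostate epithelium. Its level was 393 CPM in ventral and 12426 CPM in proximal distal luminal-like cells. The ventral UMIs came from the Msmb-rich cluster 2, which held 4852 CPM and 94.5% of the library's Pbsn, against 11.2 to 19.9 CPM in the other distal luminal-like clusters. In the proximal library Pbsn was made in both the second and the third group of cells, at 17440 CPM in cluster 8, 17191 CPM in cluster 5, 28002 CPM in cluster 17 and 7315 CPM in cluster 15. In the Sbp-rich cluster 2 it stood at 175 CPM, below the reference immune-like level of 259 CPM. It was the leading product in 303 of 706 proximal cells (42.9%, interval 39.2 to 46.7).

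Rnase1 (a secreted pancreatic-type ribonuclease, ENSMUSG00000035896, chr14:51144998-51146785, minus strand) was above background mostly in cells that also made Pbsn, in 51 of 52 ventral and 458 of 475 proximal cells. Of the cells above background in Pbsn, 51 of 86 ventral and 458 of 508 proximal ones had Rnase1. The ventral limit was 118 CPM for either gene, resting on 0 reference UMIs. The proximal limits were 1449 CPM for Pbsn and 345 CPM for Rnase1, so the shares are not like for like. In the ventral library 826 of the 843 Rnase1 UMIs of distal luminal-like cells came from cluster 2, at 277 CPM, and the other distal luminal-like clusters held 0.260 to 0.746 CPM. Among proximal clusters it stood at 955 CPM in cluster 8, 1898 in cluster 5, 2703 in cluster 17, 817 in cluster 15 and 6.44 in cluster 2, and in cluster 15 only 11 of 57 cells were above background in Rnase1 against 45 in Pbsn. Across the 35 clusters of both libraries, which within a library share its preparation and depth, the log2 levels of Pbsn and Rnase1 had a Pearson correlation of 0.92.

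Azgp1 (zinc-alpha-2-glycoprotein, a secreted protein with an MHC class I fold, ENSMUSG00000037053, chr5:137981520-137990233, plus strand) was made by all 3 groups at levels of the same order. It stood at 629 CPM (interval 621 to 637) in ventral and 670 CPM (interval 661 to 678) in proximal distal luminal-like cells. Per cluster it was 557 CPM in proximal cluster 2, 645 in cluster 5, 776 in cluster 8 and 807 in ventral cluster 2, and 588 to 683 in the other ventral distal luminal-like clusters. Proximal cluster 17 stood at 1119 CPM and proximal cluster 15 at 223 CPM. The order of the libraries turned when UMIs were scaled to the UMIs of genes other than the 10 products and Spink1. On that scale, written here as CPM of other genes, Azgp1 stood at 1147 in ventral and 835 in proximal cells. The cluster levels above are in plain CPM. The products and Spink1 took 52.2% of UMIs in proximal cluster 2, 3.07% in cluster 5 and 9.98% in cluster 8. The place of cluster 2 below clusters 5 and 8 therefore holds in CPM only.

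C1rb, Fgl1, Gsdma and Tcaf3 belonged to the third group of cells. C1rb (ENSMUSG00000098470, chr6:124570294-124581171, plus strand) encodes a serine protease of the complement C1r type, and Fgl1 (ENSMUSG00000031594, chr8:41191434-41215156, minus strand) a secreted fibrinogen-like protein best known from liver. Gsdma (ENSMUSG00000017204, chr11:98664351-98677708, plus strand) encodes a pore-forming gasdermin, and Tcaf3 (ENSMUSG00000018656, chr6:42584866-42597692, minus strand) a member of the TRP channel-associated factor family. Gsdma and Tcaf3 are not classical secreted proteins, so they are called products here only for their place in the list.

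In proximal cluster 5, with 243 cells, C1rb stood at 1050 CPM, Fgl1 at 721, Gsdma at 669 and Tcaf3 at 5615, and 196, 195, 211 and 233 of its cells were above background in that order. Cluster 17, with 87 cells, held C1rb at 972, Fgl1 at 1171, Gsdma at 881 and Tcaf3 at 3198 CPM. Fgl1 was 1.62-fold as high in cluster 17 as in cluster 5 (interval 1.53 to 1.72), and Tcaf3 0.570-fold (interval 0.550 to 0.589). The median cell of cluster 17 had 10316 UMIs and that of cluster 5 had 50305. Tcaf3 was the leading product in 40 proximal cells (5.67%). In the 1358 ventral distal luminal-like cells the same genes were nearly missing, with 42 UMIs of Fgl1, 29 of Gsdma, 6 of Tcaf3 and 1 of C1rb in all. All 6 Tcaf3 UMIs lay in 6 different cells.

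Ren1 (renin, the aspartyl protease that cleaves angiotensinogen, ENSMUSG00000070645, chr1:133350510-133360325, plus strand) was the product of the fewest cells. The ventral library held 0 UMIs of it in distal luminal-like cells, which allows up to 0.0791 CPM when 0 is taken as 3 counts. In the proximal library 79 of 706 cells (11.2%, interval 8.96 to 13.8) were above background, and cluster 5 had 96.7% of the Ren1 UMIs. Within cluster 5 the gene was uneven: 147 of 243 cells had 0 UMIs, 33 had UMIs but were not above background, and 63 (25.9%, interval 20.5 to 31.9) were above it. Those 63 ranged from 46.4 to 19170 CPM, with a median of 890 CPM.

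Levels of several other products differed between these 63 cells and the 147 cells of cluster 5 with 0 Ren1 UMIs. C1rb stood at 1582 CPM (interval 1541 to 1623) in the Ren1 cells and 771 (interval 749 to 794) in those at 0, Fgl1 at 1082 and 549, and Gsdma at 829 and 585. Tcaf3 went the other way, at 3234 CPM in the Ren1 cells and 6843 in those at 0, as did Rnase1 at 1489 and 2193. Pbsn was also lower in the Ren1 cells, at 15799 CPM (interval 15672 to 15928) against 18679 (interval 18568 to 18790). Azgp1 was at 645 and 669 CPM, where the intervals overlapped. Msmb stood at 72.9 and 810 CPM, with 0 of the 63 and 16 of the 147 cells above background, while the median cells were at 61.7 and 101 CPM. All 63 Ren1 cells were above background in C1rb, with a lowest cell of 781 CPM, against 108 of the 147 cells at 0. The ranges overlapped for each of these genes. The Ren1 cells were deeper, with a median of 60980 UMIs against 40578, and the part of depth in these differences was not tested. Levels were pooled over cells of 1 library, so the intervals do not cover differences between animals. In cluster 17, 6 of 87 cells were above background in Ren1, and the cluster stood at 67.2 CPM against 1052 CPM in cluster 5. In cluster 15 it was 10 of 57 cells, at 298 CPM. Not all differences of cluster 5 were found in cluster 17, where the 6 Ren1 cells and the 76 cells at 0 held Fgl1 at 1176 and 1174 CPM, Gsdma at 792 and 881 and C1rb at 1136 and 926, with overlapping intervals. Tcaf3 was at 1888 and 3408 CPM there, Rnase1 at 2192 and 2823 and Pbsn at 16709 and 29893, lower in the Ren1 cells as in cluster 5. In cluster 15 the 10 Ren1 cells and the 34 cells at 0 held C1rb at 916 and 464 CPM and Gsdma at 569 and 263. Tcaf3 was at 5144 and 6495 there, while Fgl1 (131 and 100) and Rnase1 (288 and 388) had overlapping intervals. These Ren1 cells too were deeper, with a median of 9849 UMIs against 2893.5. The plot of Ren1 against C1rb and Tcaf3 shows the single cells.

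**Figure D2:**
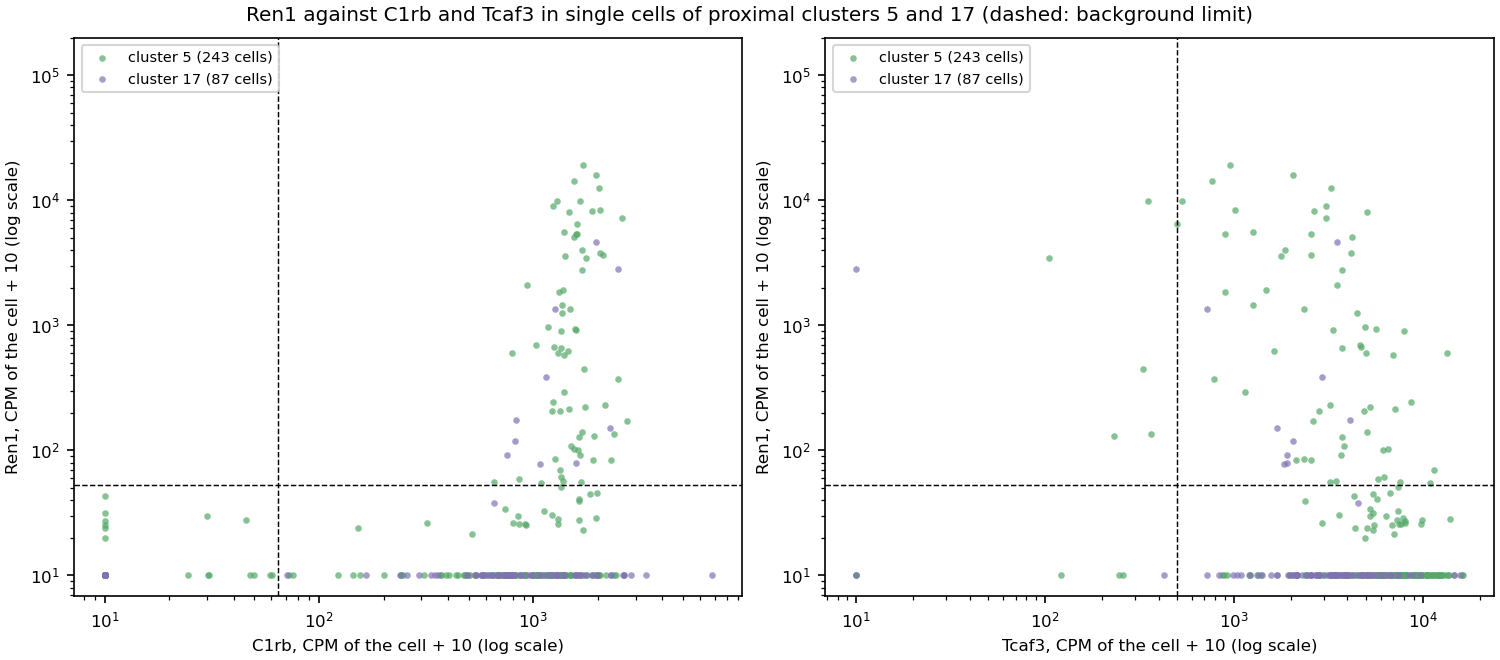
Ren1 (vertical axis) against C1rb (left) and Tcaf3 (right) in single cells of proximal clusters 5 (243 cells) and 17 (87 cells), as CPM of the cell plus 10 on log axes, with dashed lines at the background limits. All 63 cells of cluster 5 above the Ren1 limit lie to the right of the C1rb limit, and cells with 0 UMIs lie at 10.

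Cells differed in how many products they combined. Among ventral distal luminal-like cells, 1185 of 1358 (87.3%) made 2 products above background and 102 (7.51%, interval 6.17 to 9.04) made 3 or more, a share of 4.20% with the 16 cells set apart put back into the background. Among proximal ones, 518 of 706 (73.4%, interval 69.9 to 76.6) made 3 or more, 165 made 7 and 68 made 8. C1rb was above background in 78 of the 79 cells that made Ren1, and Gsdma in 75 of them. Of 281 proximal cells with Fgl1 above background, 280 also had Rnase1 and 280 had Pbsn. Of 301 cells with Gsdma, 293 had Tcaf3. The reverse shares were lower: Rnase1 was above background in 475 cells, of which 280 made Fgl1. The plot of combinations gives the 8 most frequent sets per library.

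**Figure D3:**
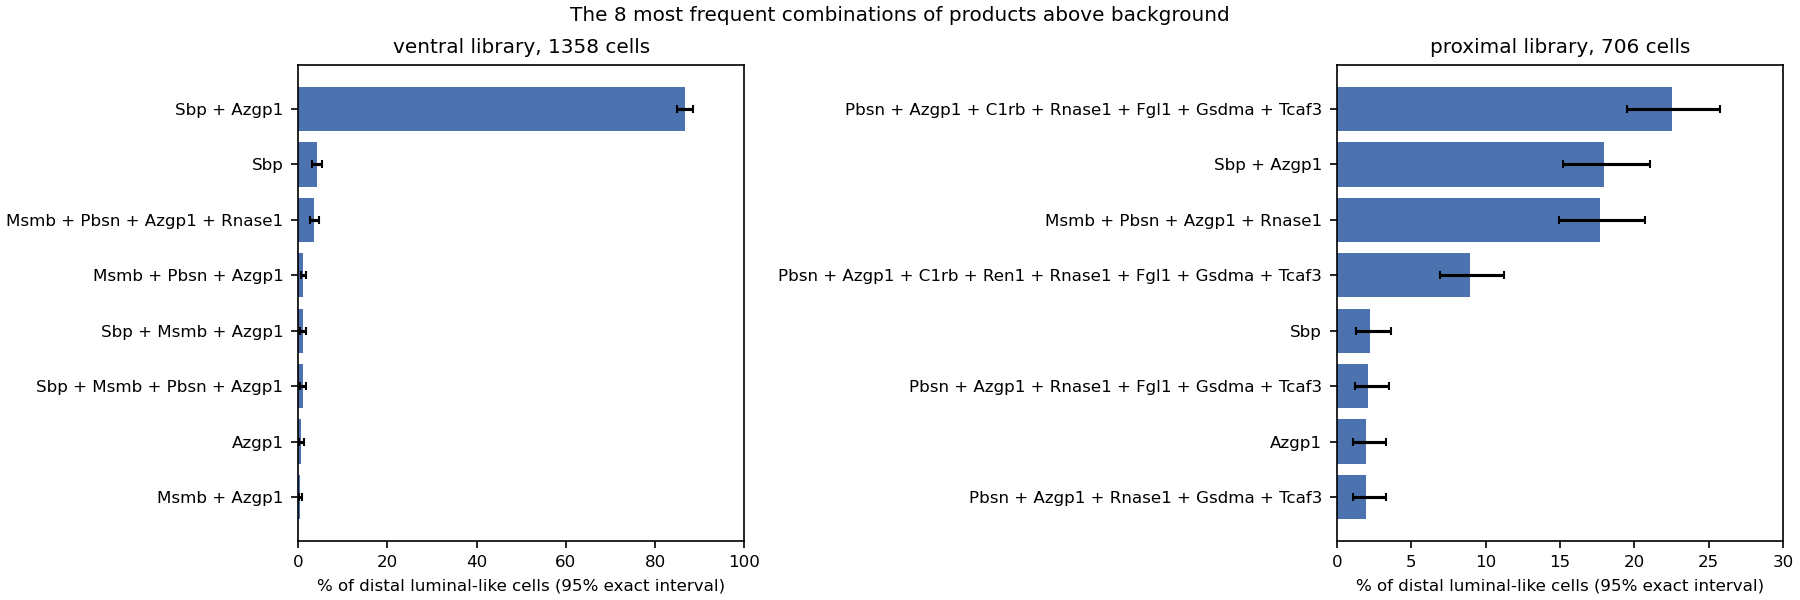
Share of distal luminal-like cells of the ventral (left, 1358 cells) and proximal (right, 706 cells) library that made exactly the named set of products above background, with exact 95% intervals as error bars. Sbp with Azgp1 takes 86.7% of ventral cells, while 4 sets take 8.92% to 22.5% of proximal cells each.

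Full sets were found in different shares of the cells of each cluster. Msmb, Pbsn, Rnase1 and Azgp1 were all above background in 139 of 156 cells of proximal cluster 8 (89.1%), which had a median of 67682 UMIs, and in 50 of 115 cells of ventral cluster 2 (43.5%), with a median of 24793. C1rb, Fgl1, Gsdma, Tcaf3, Rnase1 and Pbsn were all above background in 173 of 243 cells of cluster 5 (71.2%), 52 of 87 of cluster 17 (59.8%) and 6 of 57 of cluster 15 (10.5%). In cluster 17 the 52 cells with the full set had a median of 15158 UMIs and the others 4698. In proximal cluster 8 the order was the other way, at 66759 and 79126 UMIs. Among cells of at least 10000 UMIs the full set was found in 170 of 224 cells of cluster 5, 39 of 46 of cluster 17 and 6 of 18 of cluster 15, which turns the order of clusters 5 and 17, and in 132 of 143 cells of cluster 8 and 50 of 110 of ventral cluster 2.

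Sbp and Msmb were seldom both above background in a cell. Both were above background in 31 of 1358 ventral cells (2.28%, interval 1.56 to 3.22) and in 20 of 706 proximal cells (2.83%, interval 1.74 to 4.34). The 31 cells were 30.1% of the 103 ventral cells with Msmb above background and 2.44% of the 1272 with Sbp, and the 20 cells were 10.7% of 187 and 11.05% of 181. Ventral cluster 2, the Msmb-rich one, itself held Sbp at 50999 CPM, above its Msmb level of 33800 CPM, with a median cell at 11342 CPM and 42 of 115 cells above the Sbp limit of 38416 CPM. The ventral split therefore depends on that limit. Of the 31 ventral cells, 28 lay in cluster 2, where they made up 28 of 115 cells, with medians of 90341 CPM for Sbp and 19839 CPM for Msmb. The median cell of cluster 2 as a whole held Msmb at 34181 CPM, and those of the other distal luminal-like clusters held Sbp at 212834 to 246976 CPM. The 28 cells had a median of 28717.5 UMIs against 24793 for the cluster. The median doublet score was 0.0332 in the 31 cells and 0.0257 over the class, and 0.0415 in the 20 proximal cells with both against 0.0164. With the cells of highest doublet score removed at the expected rate, 2.28% of ventral and 1.77% of proximal cells held both. The part of free RNA in these cells was not tested. The ventral share was 0% with the 16 cells set apart put back into the background and 3.98% at 2 times the immune limit, and the proximal share ran from 1.09% to 4.53% over the alternatives tried.

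Of the 20 proximal cells with both products, 9 lay in cluster 8, with a median of 81034 UMIs against 67682 for the cluster, and 9 in cluster 15, with a median of 2277 UMIs. Cluster 15, of 57 cells with a median of 6150 UMIs and Gm26917 as its leading gene, held products of all 3 groups: Sbp at 4151 CPM, Msmb at 344, Pbsn at 7315 and Tcaf3 at 6982. It also held the seminal vesicle product Svs5 at 320 CPM, against 52.1 to 59.0 CPM in the 4 other distal luminal-like clusters. The part of free RNA in the values of cluster 15 was not tested. Ren1 and Msmb were both above background in 0 of 706 proximal cells, which allows up to 0.521% by the exact interval. The plot of Sbp against Msmb shows both libraries.

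**Figure D4:**
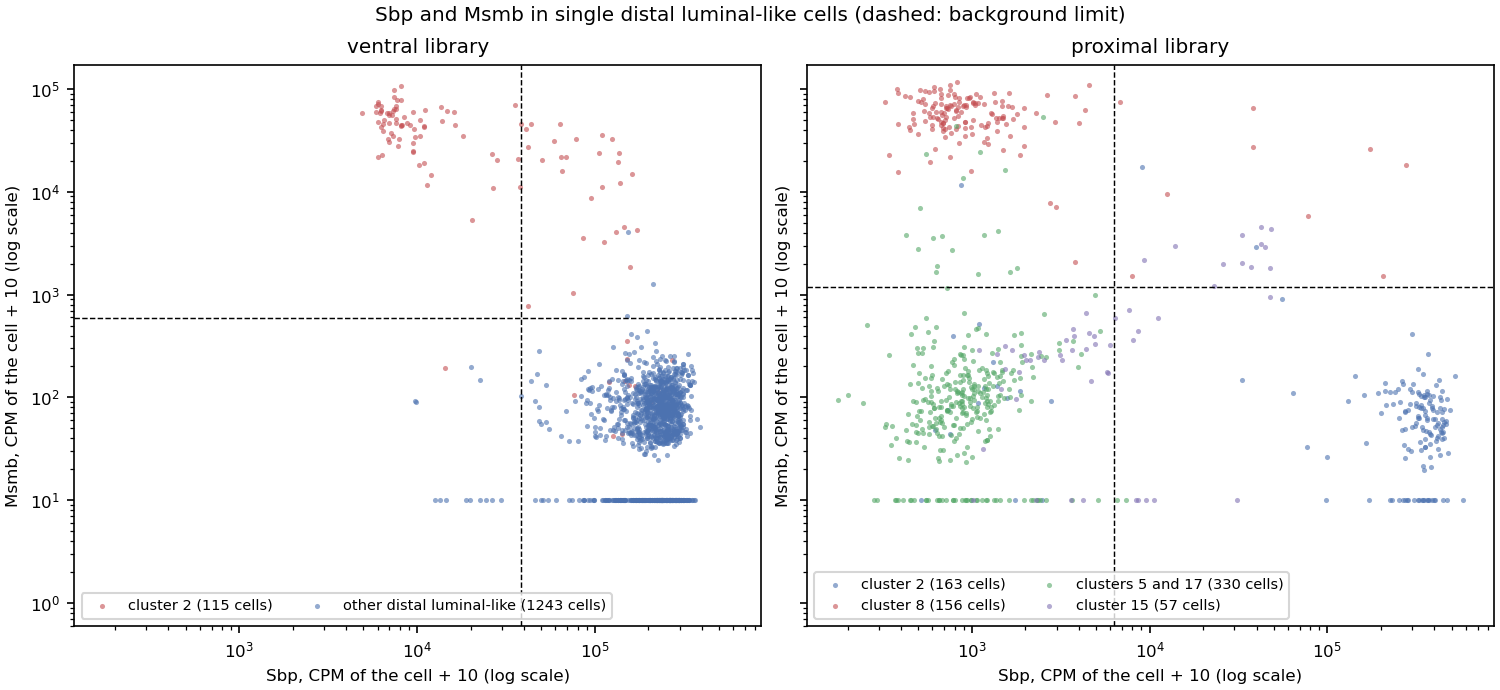
Msmb (vertical axis) against Sbp (horizontal axis) in single distal luminal-like cells of the ventral (left) and proximal (right) library, as CPM of the cell plus 10 on log axes, coloured by cluster, with dashed lines at the background limits. In the ventral panel 1272 cells were above background in Sbp and 103 in Msmb, in the proximal panel 181 and 187, and 31 and 20 cells were above background in both.

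Immune-like cells served as the reference for background. Whether they make any of the products was not tested. In the ventral library Sbp was found in all 39 reference immune-like cells at 7249 CPM (interval 6834 to 7683), Msmb at 63.8 CPM (10 UMIs) and Azgp1 at 12.8 CPM (2 UMIs). The other 7 products had 0 UMIs there, which allows up to 19.1 CPM when 0 is taken as 3 counts. A further 16 cells of the ventral immune-named clusters, 14 from the T or NK-like and 2 from the macrophage-like cluster, were set apart because Sbp and Spink1 made up over 5% of their UMIs. Their own markers go against the immune name. Together they had 0 UMIs of the leukocyte gene Ptprc and 0 of the 6 T or NK markers in 385607 UMIs, against 39 and 306 UMIs in 156710 UMIs of the reference cells. They held the epithelial genes Krt8 at 563 CPM and Epcam at 366 CPM, against 374 and 236 CPM in distal luminal-like and 6.38 and 12.8 CPM in reference cells. The 2 cells of the macrophage-like cluster also held 86 UMIs of the 6 macrophage markers, while the 14 others held 1. The 16 cells held Sbp at 207162 CPM and Azgp1 at 482 CPM, near the levels of distal luminal-like cells, and had a median of 23778 UMIs against 3683. In the proximal library 0 of 106 immune-like cells were over 5%.

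All 10 products were found in the 106 proximal immune-like cells, from 0.834 CPM for Fgl1 (1 UMI) to 1190 CPM for Sbp. Pbsn stood at 259 CPM, Msmb at 205, Tcaf3 at 80.0, Rnase1 at 54.2, Azgp1 at 14.2, Gsdma at 6.67, C1rb at 5.00 and Ren1 at 3.34. A single cell gave 61.0% of the Msmb UMIs, a single cell 83.1% of the Rnase1 UMIs and a single cell 45.8% of the Tcaf3 UMIs. In the other classes levels were of the same order for Sbp and Pbsn and lower for Msmb, Tcaf3 and Rnase1: over proximal luminal-like, basal-like, fibroblast-like and endothelial-like cells Sbp lay between 708 and 1094 CPM, Pbsn between 175 and 222, Msmb between 74.3 and 87.4, Tcaf3 between 29.2 and 58.7 and Rnase1 between 4.95 and 12.1. Per 100 UMIs of Sbp there were 21.8 UMIs of Pbsn in the immune-like, 19.4 in the fibroblast-like and 19.1 in the endothelial-like cells.

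**Figure D5:**
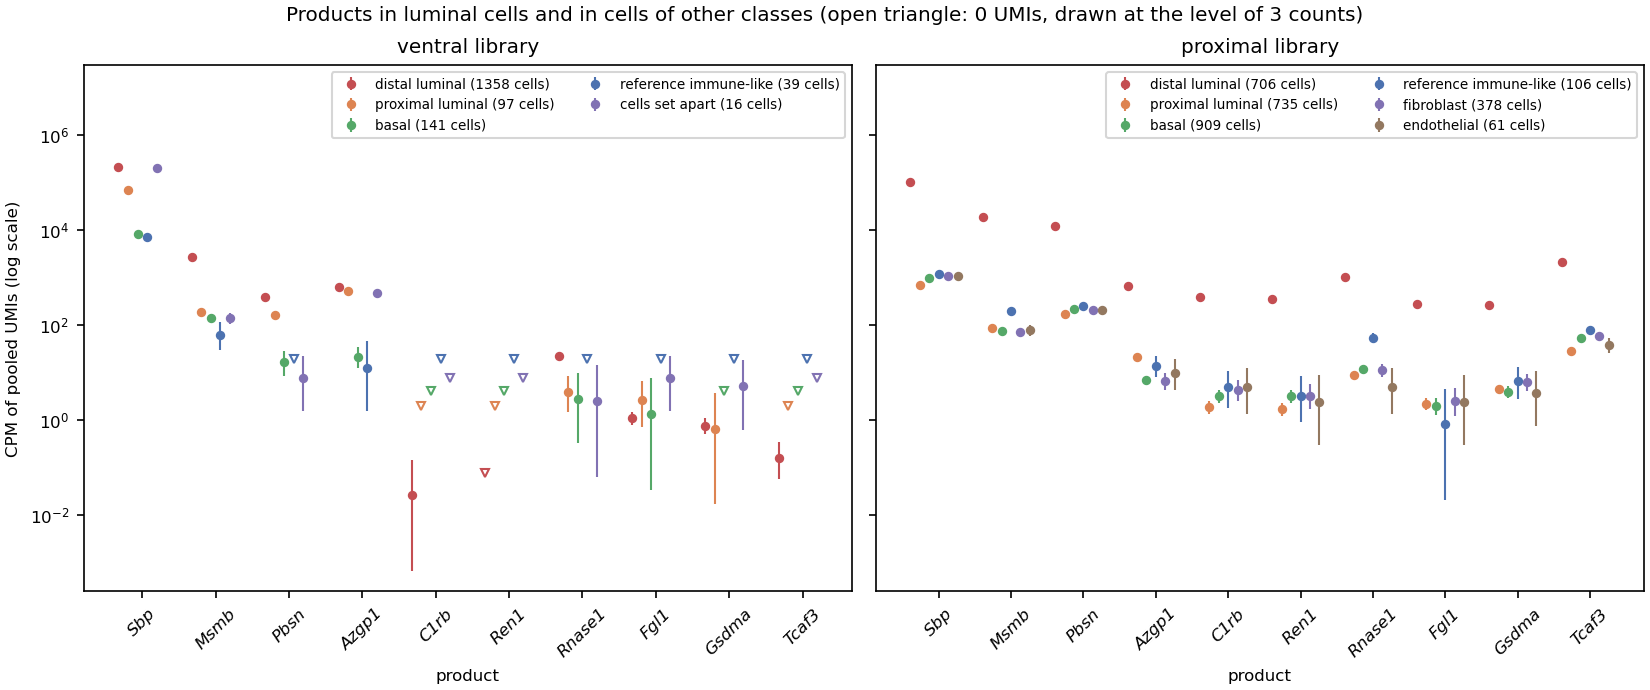
Pooled level of each product in CPM (log axis) with exact 95% Poisson intervals, in distal luminal-like cells and in cells of other classes of the ventral (left) and proximal (right) library. In the proximal library the distal luminal-like point of each product lies above the other classes drawn, and open triangles mark groups at 0 UMIs, drawn at the level of 3 counts. The 16 ventral cells set apart, which had 0 Ptprc UMIs, lie near the distal luminal-like level in Sbp and Azgp1.

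Against this background, with at least 10-fold taken as the call and 10 CPM in 1 group needed for a gene to be tested, all 10 products were higher in proximal distal luminal-like than in reference immune-like cells, where 4.12% of 9190 genes tested were called. The ratios ran from 19.3 for Rnase1 (interval 15.1 to 24.99) to 108 for Ren1 (interval 42.3 to 398), leaving out Fgl1, whose ratio of 343 rests on 1 immune UMI. The Rnase1 ratio rests on the 1 immune-like cell with 83.1% of the Rnase1 UMIs of its group. Over the alternatives the Rnase1 log2 value ran from 4.21 to 7.20, so its place in this order is not firm. Nor is the top place firm: Ren1 rests on 4 immune UMIs, and its log2 value reached 7.08 and that of Msmb 7.75. In the ventral library 4 of the 5 products tested were called, Sbp, Msmb, Pbsn and Azgp1, where 0.998% of 8213 genes were called. Sbp was 29.2-fold (interval 27.5 to 31.0) and Msmb 42.6-fold higher (interval 23.1 to 88.8), and Pbsn, at 0 UMIs in the reference cells, at least 20.6-fold higher. With the 16 cells set apart put back the ratio was 1.42 for Sbp and 1.81 for Azgp1, but most UMIs of that pool came from cells without leukocyte markers, so it is no immune level. The members were chosen with such values in view, so the counts are descriptions.

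Proximal luminal-like cells held little of any product in the proximal library. All 10 were at least 4-fold higher in the distal class, where 4.8% of 8497 genes passed the same fold, and Azgp1 had the smallest ratio, 31.6 (interval 28.9 to 34.7). In the ventral library 2 of 5 products tested passed 4-fold, Msmb and Rnase1, against 0.252% of 7531 genes. Which products passed depended on the processing: over the alternatives the log2 ratio ran from 2.77 to 6.77 for Msmb, 1.37 to 4.32 for Rnase1, 0.91 to 4.94 for Sbp, 0.0088 to 5.33 for Pbsn and 0.0077 to 2.33 for Azgp1, where 4-fold is 2. There the 97 proximal luminal-like cells were of 2 kinds. Cluster 9, with 43 cells and Wfdc2 as its leading gene, had 0 cells above background in Sbp and a median cell at 6690 CPM, near the immune level. Cluster 11, with 54 cells led by the acute-phase gene Saa1, held Sbp at 105796 CPM with 28 cells above background, and Azgp1 at 754 CPM with 46 cells above background.

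Between the libraries, 8 of the 10 products were at least 4-fold higher in proximal than in ventral distal luminal-like cells, where 6.89% of 7441 genes were higher and 0.269% lower, with 0 products among the lower. Msmb was 7.05-fold higher (interval 7.004 to 7.10), Pbsn 31.6-fold, Rnase1 47.0-fold, Fgl1 258-fold and Gsdma 345-fold. Ren1, at 0 ventral UMIs and set against 3 counts, was at least 4572-fold higher, and the ventral values of C1rb and Tcaf3 rest on the 1 and 6 UMIs given above. Sbp stood at 0.501 of the ventral level. Between clusters of like leading product, Msmb-rich cluster 8 over ventral cluster 2 gave 3.59-fold for Pbsn, 3.44-fold for Rnase1, 0.962 for Azgp1 and 0.236 for Sbp. Sbp-rich cluster 2 over ventral cluster 1 gave 1.46-fold for Sbp and 0.874 for Azgp1. Tcaf3 had 0 UMIs in both ventral clusters and stood at 73.8 CPM in proximal cluster 8 and 29.3 CPM in proximal cluster 2. Pbsn stood at 175 CPM in proximal cluster 2. In CPM all were below the proximal reference immune-like levels of 80.0 and 259 CPM, so no fold is given for them. The products and Spink1 took 52.2% of UMIs in cluster 2 and 9.98% in cluster 8, so that order may differ per UMI of other genes.

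Other prostate secretions and near relatives of the products were taken from lists. Of all 7441 genes tested between the libraries, 6.89% were higher and 0.269% lower in proximal distal luminal-like cells. Of 15 other secretions, 10 were tested, with 6 higher and 2 lower (median log2 ratio 2.13, against 0.49 over all genes). Those lower were Spink1, a protease inhibitor, and the Sbp relative Sbpl, and those higher were Tgm4, the prostate transglutaminase that clots semen, Apof, Clu, Wfdc2, Svs4 and Svs5. Of these, Clu (335 CPM), Wfdc2 (43.5), Svs4 (37.8) and Svs5 (58.4) stood below their proximal reference immune-like levels (562, 141, 41.7 and 71.7 CPM). In CPM only Tgm4 and Apof were therefore above background. Tgm4 stood at 16502 CPM in cluster 5 and 20160 in cluster 17, where Tcaf3 and C1rb were high, and at 261 in cluster 8. The beta-defensin Defb50 went with Msmb, at 118942 CPM in ventral cluster 2 and 99536 in proximal cluster 8. Of the 12 near relatives 11 were in the files and 6 were tested, with 4 higher (C1s2, Tcaf2, Rnase4 and Ang) and 1 lower (Sbpl). Their median log2 ratio was 1.98, against 0.49 over all genes. Rnase4, at 24.3 CPM in proximal distal luminal-like cells, was within the interval of the reference immune-like level of 22.5 CPM (14.8 to 32.8) and so not above background, and Ang stood at 35.4 against 20.0 CPM. C1s2, which encodes a protease of the C1s type, stood at 158 CPM in cluster 5 and 1.19 in cluster 8, and C1ra, a close relative of C1rb, at 4.36 CPM in cluster 5.

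The genes most like each product were ranked by Pearson correlation of log2(CPM + 10) over the 35 clusters. The 7011 candidates left out the 10 products, and the ranking is a description that rests on few clusters of shared libraries. Spink1 was nearest to Sbp (0.996), AY761184 to Msmb (0.95), Stat5a, a transcription factor of the prolactin pathway, to Pbsn (0.87) and Rnase1 (0.93), Lyrm9 to Azgp1 (0.97) and Tgm4 to Tcaf3 (0.99). Glb1l3 was nearest to C1rb (0.99), C1s2 to Ren1 (0.96), Tmod4 to Fgl1 (0.98) and Ms4a5 to Gsdma (0.99). Among the products themselves C1rb and Gsdma were the nearest pair, at 0.99, and Sbp and Tcaf3 the most opposed, at -0.60. Pbsn lay nearer to Rnase1 (0.92) than to Stat5a. Background differed by library: ventral basal-like cells held Sbp at 8517 CPM and 0 UMIs of Tcaf3, proximal ones 1007 and 55.1 CPM. The part of such background in the -0.60 was not tested.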

How the data were processed

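Libraries of dissociated prostate cells were made on the 10x Genomics Chromium platform with a target of 5000 cells, per the labels' protocols. Deposited values are UMI counts for every gene in each barcode, not normalized, and the submitters' processing notes name Cell Ranger 7.0.0 and mm10. The annotation used by the authors is not given in the sources used here, and gene positions come from GENCODE on GRCm38. The members and gene lists were chosen with earlier results of these data known. A further gene list is not reported here.

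Python 3.11.15, scanpy 1.11.5, igraph 0.11.9, scipy 1.17.1 and numpy 2.4.6 were used. Barcodes with under 500 genes or over 10% mitochondrial UMIs were removed (226 ventral, 635 proximal). Scrublet, as run in scanpy, called 11 of 5704 cells doublets (0.193%), too few for the call to be trusted, and doublets may remain. Cells were scaled to 10000 UMIs, log-transformed and clustered on 2000 variable genes without the members, with 30 principal components, 15 neighbours and Leiden resolution 1 (seed 0), giving 14 ventral and 21 proximal clusters. Names came from markers of 20 classes. A cluster needed 3 markers found in at least 25% of its cells, and stayed unnamed where its 10 leading genes pointed to another class. Poisson, Clopper-Pearson and conditional ratio intervals are exact at 95%. A fold against 0 UMIs was computed against 3 counts. Genes under 10 CPM in both groups were not tested. Genes most like a member needed 50 CPM in a cluster of at least 20 cells, and the 3 most like were ranked. No p-values were computed, since each group has 1 library.

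On simulated counts with 200 of 32285 genes changed 8-fold, the sign was right for 100% in both libraries and the interval held the true ratio for 96% in the ventral and 93.5% in the proximal simulation. Cells simulated at 2 times the background limit of a product were called above it in at least 85.9% of ventral and 38.2% of proximal cells, over the 10 products, so shares above background miss cells near the limit. Alternatives covered filters, doublets, clustering, naming, background, threshold, depth, pseudocount and, added after seeing the data, naming from 1 marker and scaling to other genes.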

Additional observations from a re-analysis of the deposited data

Results flagged for a closer look

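Ratios of a product in 1 class over reference immune-like cells went in opposite directions in the 2 libraries in 5 cases, and the difference was not tested. Sbp in proximal luminal-like cells stood at 9.83 times the immune level in the ventral library and 0.595 times in the proximal library. The ventral value comes from cluster 11 (105796 CPM), since cluster 9, the other cluster of the class, stood at 7063 CPM against 7249 CPM in the reference cells. Msmb in the same cells stood at 2.9996 and 0.426 times. Pbsn stood at least 8.73 times above the immune level in the ventral library, where the reference cells had 0 UMIs, and at 0.675 times in the proximal library. In basal-like cells Sbp stood at 1.17 and 0.846 times and Msmb at 2.23 and 0.379 times the immune level. A single cell of ventral cluster 9 gave 77.5% of the Msmb UMIs and 89.9% of the Pbsn UMIs of the ventral proximal luminal-like cells, 1 basal-like cell gave 38.8% of the ventral basal Msmb UMIs, and 1 proximal immune-like cell gave 61.0% of the Msmb UMIs of its group. The part of single cells in these ratios was not tested.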

How the results depend on the processing

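Of the ratios of single products between the libraries, 1 of 116 values under an alternative changed direction: Azgp1, higher in the proximal library in CPM, was at a log2 ratio of -0.46 when scaled to the UMIs of other genes. Ratios over reference immune-like cells kept their direction in all 181 values. Of 216 ratios over proximal luminal-like cells, 4 values of ventral Gsdma, which rests on 1 UMI in the latter class, changed direction, down to -0.90 from 0.18. Beyond the interval of the reported value moved 48 of the ratios between the libraries, 18 of those over reference immune-like cells and 115 of those over proximal luminal-like cells. Of 260 levels, 91 moved. Shares moved as follows, and the causes were not tested. With all cells of the immune-named clusters as background, which puts back 16 cells without Ptprc UMIs, the ventral share above background was 0% for Sbp and 0.0736% for Azgp1, in place of 93.7% and 95.3%. The ventral share of cells with both Sbp and Msmb was 0% with that background, which raises the Sbp limit, 3.98% at 2 times and 1.33% at 10 times the immune limit. The ventral share led by Msmb was 6.48% with 200 genes and 20% mitochondrial UMIs, 6.38% with the members kept among the variable genes and 3.87% with each cell named by itself. The ventral share with 3 or more products was 9.11% with 200 genes, 5.89% with each cell named by itself, 4.20% with the 16 cells put back, 9.50% at 2 times the limit and 6.08% with clusters named from 1 marker. The proximal share with both Sbp and Msmb was 1.58% with 200 genes, 1.73% at resolution 0.5, 1.70% at resolution 2, 1.09% with more variable genes, 1.72% with seed 1, 4.53% at 2 times and 1.70% at 10 times the limit, 1.27% with at least 10 UMIs and 1.11% in cells thinned to 5000 UMIs, where the ventral share was 2.91%. No order of the libraries can be read from these shares. The proximal share with 3 or more products was 68.6% with each cell named by itself and 64.9% with at least 10 UMIs. Gene ranks by likeness changed: under Spearman correlation 0 of the 3 reported genes remained for Msmb, Azgp1, C1rb, Ren1, Fgl1 and Gsdma, and 3 of 3 for Tcaf3. No paired analysis was possible because each group has 1 library, and for the same reason no library could be left out.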

Other observations

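Cells of 2 proximal clusters outside the secretory class also held members. In cluster 19, of 88 proximal luminal-like cells led by Prol1, Azgp1 stood at 84.1 CPM with 16 cells above background, while Sbp (836 CPM) and Pbsn (205 CPM) were below the reference immune-like level. In cluster 20, of 26 seminal vesicle-like cells led by Svs5, Tcaf3 stood at 276 CPM, Rnase1 at 154 CPM and Gsdma at 42.1 CPM, with 3, 4 and 3 cells above background. A single cell gave 34.7% of the Tcaf3 UMIs of that cluster, 38.4% of the Rnase1 UMIs and 40.0% of the Gsdma UMIs.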
